A study of Homo sapiens with 6 samples.

Results

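Among the RUNX1 binding sites that appeared in ME-1 leukemia cells after AI-10-49, a small group lay in chromatin that carried H3K27 acetylation in DMSO and was no longer listed as acetylated after the drug. These sites were chosen by their presence or absence in the 4 deposited peak lists. Each is a RUNX1 peak of the AI-10-49 list that overlapped no RUNX1 peak of DMSO, overlapped an H3K27ac region of DMSO by at least 1 bp, and overlapped no H3K27ac region of AI-10-49. The rule selected 440 of the 10319 RUNX1 sites listed in AI-10-49, or 5.01% of the 8783 sites that were new there. Because presence in the lists made the choice, the differences in listing are a description and were not tested.

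ME-1 is an established human cell line with inv(16), which fuses the genes CBFB and MYH11 within chromosome 16. All groups therefore carry the fusion protein CBFβ-SMMHC, and all come from this single line. Cells received AI-10-49 at 1 µM or DMSO, the solvent control, for 6 h. RUNX1, or histone H3 acetylated at lysine 27, was then pulled down together with its DNA. With 2 input libraries the series has 6 samples, of which the 4 precipitated ones have peak lists, and each antibody and condition is 1 library. There is no replicate spread to set a difference against, so no p-value is given.

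RUNX1 is a DNA-binding transcription factor of blood cell development, and CBFβ is the partner that strengthens its binding to DNA. The fusion protein holds RUNX1 through the same contact, and AI-10-49 is a small molecule made to break that contact. H3K27ac is laid down by the acetyltransferases p300 and CBP on nucleosomes that flank active promoters and enhancers. The DNA bound by a transcription factor is often free of nucleosomes, so an acetylation profile commonly shows 2 shoulders with a dip where the factor sits.

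Depth was recovered from the peak values as described with the processing. It came to 33.8 M reads (DMSO) and 31.5 M (AI-10-49) for RUNX1, and to 35.7 M and 37.0 M for H3K27ac. In the peak calls each library was scaled to its input. The recovered factors were 1 (DMSO) and 0.875 (AI-10-49) for RUNX1, and 0.952 and 0.745 for H3K27ac. For H3K27ac the scaled depth was therefore smaller in AI-10-49. The height of a peak is given below as the number of sequenced fragments over its summit, or as that number per M reads. Fragments were longer in the AI-10-49 libraries by a factor of 1.13 for RUNX1 and 1.09 for H3K27ac, which raises a summit count there, and values were not corrected for it. Intervals on fragments (exact Poisson, 95%) and on shares (exact Clopper-Pearson, 95%) cover counting error only. Each peak's fold enrichment and −log10 q were set by the authors' peak caller and serve to order peaks inside a list. Positions are in hg19. No hg19 gene annotation or sequence was used here, so sites are placed by cytoband. Genes are mentioned with their band for orientation and were not assigned to sites.

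The label of the group, sites where acetylation is lost, described 220 of the 440 sites. At these 220 (50.0%, interval 45.2 to 54.8), every DMSO acetylated region that the RUNX1 peak touched was absent from the AI-10-49 list. Where the summit in place of the peak decided membership, there were 965 sites, and 9.95% were of this kind. At the other 220 sites a touched region still had a counterpart after the drug, but that counterpart stopped short of the RUNX1 peak. In that second group the RUNX1 peak ended a median of 49.5 bp from remaining acetylation (quartiles 16.8 and 101 bp), and 207 of the 220 (94.1%) were within 250 bp of it. In the first group the median distance was 14.1 kb (quartiles 4.43 and 43.6 kb), 128 of 220 (58.2%) were over 10 kb away, and 22 were within 1 kb. The 2 groups are called absent and partly kept below, after the state of the DMSO region. Among the partly kept, 22 sites touched 2 DMSO regions of which 1 was absent and 1 had a counterpart.

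**Figure D1:**
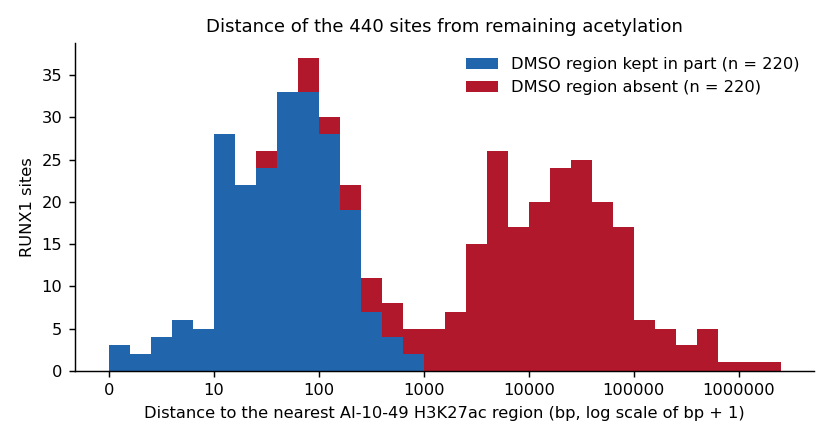
Stacked counts of RUNX1 sites by the distance in bp from the RUNX1 peak to the nearest H3K27ac region of AI-10-49 (log scale of bp + 1). The 220 partly kept sites lie within 974 bp and have a median of 49.5 bp, and the 220 absent sites have a median of 14142 bp.

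The edge of the rule ran through a dense stretch of sites. The 5 sites just inside it were 0 or 1 bp from an AI-10-49 region, in 11q23.3, 6q27, 9p24.3, 16p11.2 and 4q28.1, with 28 to 32 RUNX1 fragments. Just outside it, 5 new sites overlapped an AI-10-49 region by 1 bp, in 10p15.1, 16q22.3, 17q12, 17q25.1 and 4p16.3, with 27 to 53 fragments. Within 25 bp of this edge lay 72 of the 440 sites on the inner side and 133 new sites on the outer side. The absent group began at 29 bp, so all 72 were of the partly kept kind, and their membership turned on where a region's end was drawn.

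The same acetylation state was at least as common at RUNX1 sites that were not new. Of the 1536 AI-10-49 sites already listed in DMSO, 110 (7.16%, 5.92 to 8.57) were acetylated in DMSO only, against 5.01% (4.56 to 5.49) of new sites. Counted over sites acetylated in DMSO, the acetylation was no longer listed at 8.31% (6.88 to 9.93) of the earlier sites and 5.54% (5.04 to 6.06) of the new ones. Across the whole DMSO list, 29% of acetylated regions overlapped no AI-10-49 region, and 85.1% of AI-10-49 RUNX1 sites overlapped no DMSO site. The opposite state, acetylated in AI-10-49 only, held 144 new sites (1.64%, 1.38 to 1.93), or 1 for every 3.06 of the 440. At sites already listed in DMSO, absence of the whole region was the more frequent form, with 85 of 110 (77.3%, 68.3 to 84.7) against 50.0% among the 440.

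RUNX1 binding at the 440 sites was of ordinary height for a new site. Summit fragments ranged from 13 to 101 with a median of 28, or 0.888 per M reads (quartiles 0.698 and 1.11). New sites acetylated in both conditions (7507 sites) had a median of 1.02 per M reads, and sites already present in DMSO had 2.03. The median fold enrichment was 6.17 at the 440 and 6.46 at the new sites acetylated in both. The absent group was somewhat higher than the partly kept group, with medians of 0.920 and 0.857 fragments per M reads and peak widths of 256 and 212 bp. For the size of RUNX1 peak that the DMSO library could list, its lowest summit held 0.326 fragments per M reads, its 5th percentile 0.503 and its median 0.918. Of the 440 sites, 10 (2.27%) were under that 5th percentile and 207 (47.0%, 42.3 to 51.8) were at or above that median. At new sites acetylated in both these shares were 1.21% and 59.5% (58.4 to 60.6).

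DMSO acetylation at the 440 sites was weak beside that at other new RUNX1 sites. The strongest DMSO region touched by each site had a median width of 650 bp and 1.06 summit fragments per M reads. At new sites acetylated in both conditions the medians were 2291 bp and 4.34 fragments per M reads. The 110 sites already bound in DMSO and acetylated in DMSO only had similarly low medians of 497 bp and 0.995. The absent group stood lowest, with a median width of 425 bp and 0.813 fragments per M reads, and the partly kept group had 995 bp and 1.48. The whole DMSO list also had a median of 0.813, so acetylation here was weak only beside that at other RUNX1 sites. Genome-wide, too, the 19480 DMSO regions without a counterpart were the weaker ones, with a median of 0.532 fragments per M reads against 1.15 for those with one. Compared with those 19480, the 243 regions under the absent group were stronger and wider, with 0.813 fragments per M reads and 418 bp against 0.532 and 288 bp. A −log10 q of at least 10 was reached by 45.3% of the 243 and 14.3% of the 19480. The 243 are among the 19480 and were picked for contact with a RUNX1 peak. Such a choice favours wider regions, so this contrast is a description.

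The AI-10-49 acetylation list went down to 0.324 fragments per M reads at its lowest and 0.433 at its 5th percentile. The DMSO acetylation list went lower, to 0.252 and 0.364. At 203 of the 220 absent sites (92.3%) the DMSO region had stood at or above the AI-10-49 5th percentile. At 119 (54.1%) it stood at or above the AI-10-49 list's median of 0.757. The whole DMSO list had a median of 0.813, so most of its regions also stood above both limits. These counts are therefore a description. How much of the missing acetylation reflects the depth of that list was not tested.

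**Figure D2:**
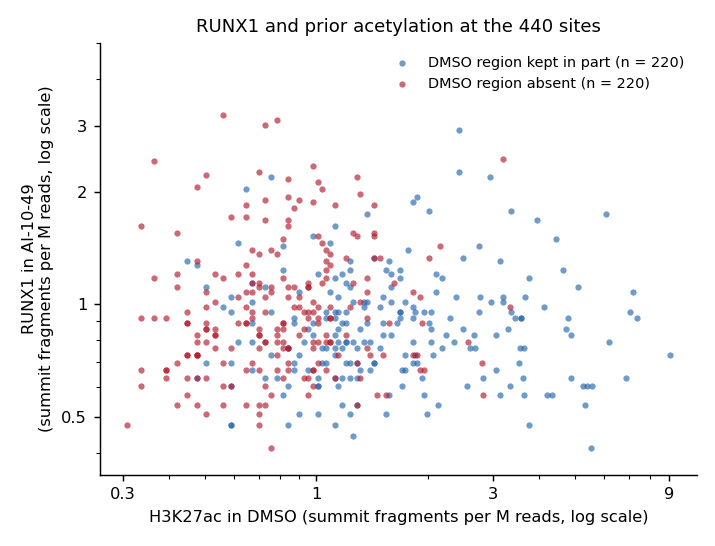
Height of RUNX1 in AI-10-49 against height of the strongest touched H3K27ac region in DMSO, for each of the 440 sites (both axes in summit fragments per M reads, log scale). Absent sites lie further left, with a median of 0.813 against 1.48, and the groups overlap on both axes.

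RUNX1 summits at these sites sat at the margin of the acetylated region. Only 197 of 440 summits (44.8%, 40.1 to 49.6) lay inside a DMSO acetylated region, against 88.2% (87.5 to 88.9) of new sites acetylated in both conditions and 68.1% (65.7 to 70.4) of sites already bound in DMSO. The 110 sites already bound in DMSO and acetylated in DMSO only were alike in this, with 43 summits inside (39.1%, 29.9 to 48.9). The overlap between RUNX1 peak and DMSO region was 1 to 622 bp with a median of 129 bp, and it covered a median of 53.6% of the peak. At new sites acetylated in both, the median summit lay 818 bp inside the nearest region end. At the 440 it lay 12.5 bp outside. The rule favours such positions, since it takes peaks that touch acetylation in DMSO and none in AI-10-49. The summit positions are therefore a description. A peak touching 2 DMSO regions occurred at 65 of the 440 (14.8%, 11.6 to 18.4), and 9.87% (9.21 to 10.6) of new sites acetylated in both touched 2 or more. No DMSO region held more than 1 of the 440 sites, which together touched 505 regions.

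The averaged profile around the summits gave the shape of the DMSO acetylation. In the absent group, 39.5% of summits lay in a DMSO region, 67.3% of positions 200 bp away did, and 4.55% of positions at 1 kb did. After AI-10-49 the shares were 0% at the summit, 1.14% at 200 bp and 2.05% at 1 kb. The rule and the definition of the absent group fix the 0% and the near absence beside it, so the AI-10-49 profile close to the summit is a description. The DMSO profile was thus higher beside the summit than on it and was low by 1 kb. A dip on the summit was not particular to this group. On the summit the DMSO share was 50.0% in the partly kept group and 88.2% at new sites acetylated in both, each below its share at 200 bp. A rule that admits a peak touching only a region's end can add to such a dip. In the partly kept group, 83.2% of positions at 200 bp were acetylated in DMSO and 40.9% after the drug. At 500 bp these shares were 72.3% and 54.1%, and at 1 kb 30.2% and 20.7%. New sites acetylated in both went from 95.7% to 92.9% at 200 bp and from 62.6% to 59.1% at 1 kb.

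**Figure D3:**
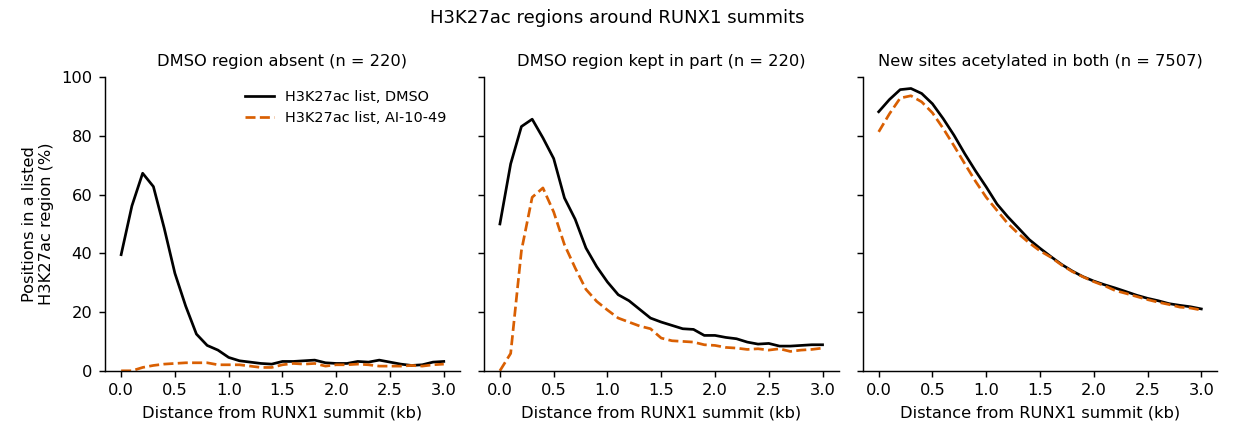
Share of positions inside a listed H3K27ac region against distance in kb from the RUNX1 summit, both directions joined, for DMSO (solid) and AI-10-49 (dashed). In the absent group the DMSO shoulder of 67.3% at 0.2 kb has 1.14% left, and in the partly kept group 83.2% has 40.9% left, drops that the choice of sites largely sets.

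The site with the highest RUNX1 −log10 q, an absent one, lay in 5q33.3, at chr5:158839317-158839850. RUNX1 held 101 summit fragments there in AI-10-49, or 3.20 per M reads (2.61 to 3.89), with a fold enrichment of 25.3, and the nearest DMSO site was 49.9 kb away. The peak bridged 2 weak DMSO acetylated regions, the stronger of which (chr5:158839707-158839956) had 20 fragments. Its summit lay in the gap between them, 159 bp from the nearer end, and the closest acetylation after the drug was 49.1 kb away. This band is also that of EBF1, a B-lineage transcription factor, and it held 4 of the 440 sites among 17 new ones.

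Next by RUNX1 −log10 q came sites in 10p14, 4q24 and 1p31.1. At chr10:11762199-11762571 in 10p14, RUNX1 had 98 fragments and the DMSO acetylated region 28, with the RUNX1 summit 40 bp inside it. At chr4:101460871-101461209 in 4q24, RUNX1 had 76 fragments, a fold enrichment of 22.5 and no DMSO site within 11947 kb. Its DMSO acetylated region was close to the weakest touched by any of the 440, with 13 fragments against 11, and shared 23 bp with the RUNX1 peak. The 4q24 site joined strong RUNX1 binding to little prior acetylation. The 10p14 region, at 0.785 fragments per M reads, was near the absent group's median of 0.813.

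The 1p31.1 site was the only partly kept one among the 15 sites with the highest RUNX1 −log10 q. At chr1:77844632-77845137 RUNX1 had 92 fragments, and a DMSO region of 1888 bp with 87 H3K27ac fragments covered the summit. After AI-10-49 the counterpart of that region had 42 fragments and ended 39 bp from the RUNX1 peak. The other 14 were all of the absent kind. Among them were 1q32.1 (95 fragments, 1.41 kb from a DMSO site), 6q14.3 (65), 19p13.11 (68), 1p35.2 (69) and 1q23.1 (54). In 9 of the 15 the RUNX1 summit lay outside the DMSO regions and in 6 inside one, near the group's own rate. Over all 440 sites 44.8% of summits lay inside, and over the absent sites 39.5%.

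A site in 2p25.3 had both strong RUNX1 and strong prior acetylation. At chr2:1993979-1994403 RUNX1 had 77 fragments in AI-10-49 and was not listed in DMSO, where the nearest site was 5.36 kb away. The DMSO region at its right side (chr2:1994183-1995029) had 114 H3K27ac fragments, a fold enrichment of 11.8 and a −log10 q of 77.2. No AI-10-49 acetylation was listed within 66.9 kb. The RUNX1 summit was 3 bp inside the region's end. A second site of this kind, in 9q34.13 (chr9:135472507-135472837), had 58 RUNX1 and 51 DMSO H3K27ac fragments, its summit 408 bp inside a region of 1399 bp, and no acetylation within 72.2 kb after the drug.

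Ranked by the −log10 q of the DMSO acetylation that was absent after AI-10-49, the first site lay in 11p15.5 (chr11:1903019-1903281). Its region, chr11:1901424-1903852, had 119 H3K27ac fragments in DMSO and a −log10 q of 85.0, and RUNX1 had 31 fragments. In 3q21.3, where the hematopoietic transcription factor gene GATA2 lies, the region chr3:128273633-128276250 had 101 fragments in DMSO and none was listed within 29.0 kb of the RUNX1 peak after the drug. RUNX1 there was weak, at 18 fragments (0.571 per M reads, 0.338 to 0.903) and a fold enrichment of 4.48. Sites in 7q22.1 (77 DMSO H3K27ac fragments, 45 RUNX1 fragments), 8p23.3 (92 and 25) and 20q11.21 (100 and 22) followed. The 20q11.21 RUNX1 peak was only 0.208 kb from a DMSO RUNX1 site. At 9 of the 10 sites in this ranking the summit lay inside the region, against 39.5% of all absent sites. The 10 regions were 604 to 2618 bp wide, beside a median of 425 bp in the absent group. A ranking that takes wide regions favours summits inside them, so this position is a description.

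The most isolated sites lay far from any remaining acetylation. The AI-10-49 region nearest to the Xq21.33 site (chrX:93998511-93998779, 18 RUNX1 fragments, 27 DMSO H3K27ac fragments) was 1680 kb away, and the nearest DMSO RUNX1 site 12919 kb. Sites in 6p11.2 (15 RUNX1 fragments), 2p24.1 (29), 3q13.13 (58) and 15q26.2 (36) were 1105, 774, 560 and 498 kb from AI-10-49 acetylation. Next to Xq21.33, the sites farthest from DMSO RUNX1 were 2 in 4q24 (the one above and a partly kept one of 30 RUNX1 fragments), 1 in Xq27.1 (21) and 1 in 6q16.1 (26), at 9091 to 11947 kb. The 3q13.13 and 15q26.2 sites had summits well inside DMSO regions, by 592 and 649 bp. The median distance to a DMSO RUNX1 site was 286 kb over all 8783 new sites, of which 8630 had none within 1 kb. Over all 440 sites it was similar, at 258 kb, and 432 (98.2%) were over 1 kb away. In 317 (72.0%, 67.6 to 76.2) no other AI-10-49 RUNX1 summit lay within 10 kb, against 61.7% (60.6 to 62.8) of new sites acetylated in both and 69.1% (59.6 to 77.6) of the 110 sites already bound in DMSO and acetylated in DMSO only.

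In the partly kept group the acetylation that remained lay to 1 side of the RUNX1 peak at 177 of 220 sites (80.5%). At the other 43 sites (19.5%, 14.5 to 25.4) acetylation remained on both sides. Of these 43, 23 sites had been wholly covered by 1 DMSO region, so that a gap at the RUNX1 peak was listed after the drug in place of continuous acetylation. The other 20 already lay between 2 DMSO regions. An example of the first form was chr22:50473197-50473472 in 22q13.33, with 41 RUNX1 fragments, where a DMSO region of 112 H3K27ac fragments had a counterpart of 37. In 1q25.1 (chr1:175809387-175809678, 33 RUNX1 fragments) the values were 54 and 42. The second form occurred in 8q24.21, the band of MYC, at chr8:128944088-128944269. RUNX1 had 42 fragments there, the stronger DMSO region 51 and its counterpart 29, and the nearest remaining acetylation was 76 bp away. Of these examples, those in 22q13.33 and 1q25.1 were chosen after their values were seen.

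The acetylated regions that remained beside RUNX1 were lower than in DMSO. A counterpart of the strongest touched region was found at 215 of the 220 partly kept sites. Median H3K27ac summit fragments at the 220 were 1.48 per M reads in DMSO, and at the 215 counterparts 0.865 in AI-10-49. The median ratio was 0.598 (quartiles 0.476 and 0.780), beside a fragment length ratio of 1.09. It was 0.706 (0.580 and 0.845) at new sites acetylated in both, 0.654 (0.532 and 0.782) at sites already bound in DMSO, and 0.838 over all 47607 DMSO regions with a counterpart. The value was lower in AI-10-49 at 195 of the 215 (90.7%, 86.0 to 94.2), a share near the 88.6% (87.9 to 89.3) of new sites acetylated in both. The counting intervals of the 2 conditions were apart at 86 sites that were lower in AI-10-49 and at 2 that were higher. The counterpart was narrower than the DMSO region at 189 of 215 (87.9%), against 61.7% (60.6 to 62.8) at new sites acetylated in both. The rule favours lower and narrower counterparts, since it takes regions that reach the RUNX1 peak in DMSO and stop short of it in AI-10-49. The height ratio of this group and both shares are therefore a description.

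**Figure D4:**
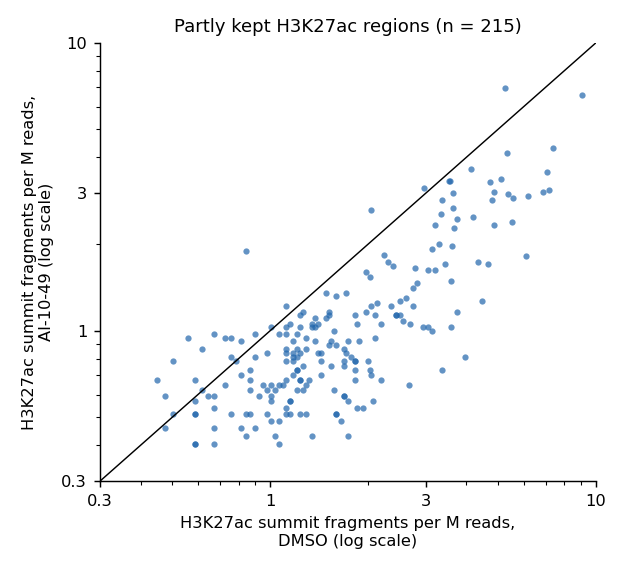
Height of H3K27ac in AI-10-49 against DMSO for the strongest touched region of 215 partly kept sites (both axes in summit fragments per M reads, log scale, with the line of equality). Of the 215 points, 195 (90.7%) lie below the line, near the 88.6% at new sites acetylated in both. The choice of sites favours points below the line.

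Acetylated sequence in the wider surroundings was also lower after AI-10-49. At 10 to 50 kb from the summit on either side, acetylated regions covered 4.65% of the sequence around the 440 sites in DMSO. In AI-10-49 they covered 3.82%, which gives a ratio of 0.821. Around new sites acetylated in both, coverage was 9.08% and 8.63%, a ratio of 0.951, and around sites already bound in DMSO 7.75% and 7.12%, a ratio of 0.919. New sites acetylated in neither condition had still less acetylation around them, 2.996% and 2.776%, with a ratio of 0.926. Over the genome the ratio of acetylated sequence was 0.908. For the absent group the ratio was 0.573 at 1 to 5 kb, 0.682 at 5 to 10 kb, 0.806 at 10 to 50 kb and 0.852 at 50 to 100 kb. For the partly kept group it was 0.761, 0.789, 0.835 and 0.901 over the same distances. The nearer windows hold parts of the DMSO regions that the rule used, so their ratios in part restate the choice of sites. The strongest touched regions were at most 7847 bp wide and do not reach the windows from 10 kb on. At 10 to 50 kb, 281 of the 440 sites (63.9%) had less acetylated sequence in AI-10-49 and 80 (18.2%) had more. Less was also the more frequent state around new sites acetylated in both (4181 of 7507 less, or 55.7%, and 2710 more) and around sites already bound in DMSO (870 of 1536 less, or 56.6%, and 462 more). Around the 144 new sites acetylated in AI-10-49 only, the ratio at 10 to 50 kb was 1.02. Such covered lengths move with how many weak regions a list holds, and the part of depth in them was not tested.

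**Figure D5:**
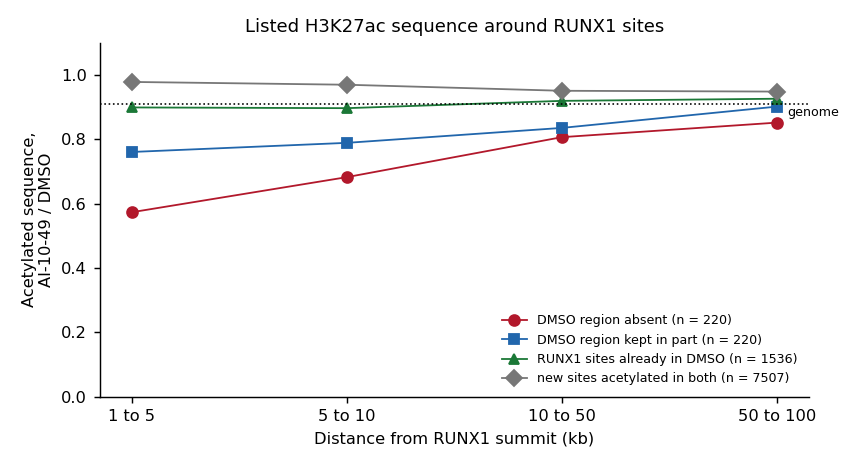
Ratio of listed H3K27ac sequence, AI-10-49 over DMSO, in windows at 4 distances in kb from the RUNX1 summit, with the whole-genome ratio of 0.908 dotted. The absent group goes from 0.573 at 1 to 5 kb to 0.852 at 50 to 100 kb, and new sites acetylated in both stay between 0.948 and 0.978.

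The 440 sites were spread over 23 chromosomes and 282 cytobands, 179 of which held 1 site. As a share of new sites the count per chromosome went from 2.61% on chromosome 21 (3 of 115) to 8.39% on chromosome 16 (27 of 322), leaving out Y with its single new site. Most sites per band were found in 1q32.1, 17q25.3 and 19p13.3, with 6 each, among 53, 75 and 109 new sites. A further 8 bands held 4 each (14q32.33, 16q24.2, 19p13.11, 4q25, 5q33.3, 6p21.2, 7q11.23 and 8p23.3). In 4q25 these were 4 of 9 new sites, in 16q24.2 4 of 11, and in 8p23.3 4 of 12. These bands were picked for their counts, so their shares are a description.

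A list of 42 cytobands that hold known myeloid and leukemia genes contained 45 of the 440 sites, in 22 bands. That was 4.81% of the 936 new sites in those bands, close to the 5.01% of all new sites. In 12p13.32, the band of the cyclin gene CCND2, RUNX1 had 71 fragments at chr12:4430015-4430460, on the flank of a weak DMSO region of 25 fragments, with no acetylation within 19.8 kb afterwards. In 17q22, the band of the granule enzyme gene MPO, RUNX1 had 61 fragments at chr17:54753695-54754090 and the DMSO region had 30. In 6p21.1, the band of RUNX2, a site at chr6:42013439-42013804 had 62 RUNX1 fragments inside a DMSO region of 47. These 3 sites were of the absent kind and stood above the median RUNX1 height of the group.

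The band of IRF8, a regulator of monocyte fate, 16q24.1, held 3 absent sites with 23 to 34 RUNX1 and 22 to 41 DMSO H3K27ac fragments. In 5q32, the band of the cytokine receptor gene CSF1R, there were 3 sites. An absent one at chr5:146858980-146859307 had 49 RUNX1 fragments and a DMSO region of 45, and a partly kept one at chr5:146863703-146864057, 4.75 kb away, had 37 RUNX1 fragments and an acetylated region with 78 fragments in DMSO and 25 in AI-10-49. The third, absent, had 21 RUNX1 fragments and a DMSO region of 30. In 6q23.3, the band of MYB, 2 absent sites had 38 and 19 RUNX1 fragments over DMSO regions of 15 and 21. In 4q12, the band of KIT, 1 absent site had 32 RUNX1 fragments and a DMSO region of 19.

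Other bands of the list held partly kept sites, some of them at or beside strong acetylation. In 19q13.11, the band of CEBPA, a driver of granulocyte development, a site at chr19:33793455-33793646 had 19 RUNX1 fragments. It touched the end of a region with 192 H3K27ac fragments in DMSO and 110 in AI-10-49, and lay 13 bp from the latter. A second site of that band, chr19:33938582-33938857, had 25 RUNX1 fragments and a region with 73 and 26. In 16p11.2, the band of the leukocyte surface gene SPN, chr16:29801852-29802035 had 29 RUNX1 fragments. It touched the end of a region with 263 fragments in DMSO, whose counterpart had 159 in AI-10-49. The AI-10-49 region that lay 1 bp away was a different one, with 105 fragments. All 6 sites of 19p13.3, the band of ELANE, were partly kept, with 20 to 38 RUNX1 fragments. In 12p13.2, the band of ETV6, a DMSO region that covered the whole RUNX1 peak had 73 fragments and its AI-10-49 counterpart 97.

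The remaining bands of the list held sites of ordinary RUNX1 height. Of 3 sites in 11p11.2, the band of SPI1, the myeloid factor PU.1, 2 were partly kept and 1 was absent, with 17 to 31 RUNX1 fragments. In 14q11.2, the band of CEBPE, both sites were partly kept, with DMSO regions of 48 and 38 fragments and counterparts of 16 and 24. Both sites of 19p13.2, the band of LYL1, and both of 5q31.2, the band of the early response gene EGR1, were absent, with 18 to 30 RUNX1 fragments. In 1p22.1, the band of the repressor gene GFI1, 1 absent site had 36 RUNX1 fragments and a DMSO region of 34. The band of CEBPB, 20q13.13, held 1 absent site (37 RUNX1 fragments) and 1 partly kept site (23). In 9q31.2, the band of KLF4, a DMSO region that covered the whole RUNX1 peak had 38 fragments and its AI-10-49 counterpart 15. In 2q22.3, the band of ZEB2, the covering DMSO region had 24 and its counterpart 36.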

How the data were processed

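Chromatin was precipitated with RUNX1 or H3K27ac antibodies from ME-1 cells in DMSO or AI-10-49, and 4 of 6 libraries had a peak list. The 2 inputs were not used here directly. Per the submitters' processing notes the build was hg19 and the tools included MACS2 2.1.0 and Bowtie2 2.1.0, beside Picard 1.96, SAMtools 1.3 and CASAVA 1.4. The sources used here do not say which input entered which call. Peaks were listed per sample. The deposited ratio of a peak is its fold enrichment at the summit, and the deposited −log10 p and q values are also the authors'. The deposited score was found to be 10 times the −log10 q and was not used.

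Summit fragments were solved from the deposited fold enrichment and −log10 p, which together give fragment number and background once the factor scaling a library to its input makes all numbers whole. This succeeded for 100% of peaks in each list, to within 0.0003 of the −log10 p. For 98 peaks of H3K27ac AI-10-49, 13 of RUNX1 AI-10-49 and 3 of H3K27ac DMSO a second number also met that limit, and the closer was taken. Read totals assume a genome size of 2700000000 bp and take the shortest peak as the fragment length. The method was tested on simulated data, and overlaps were tested against bedtools 2.31.1.

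Where a site touched several DMSO regions, the one with most fragments stands for it, and its counterpart is the overlapping AI-10-49 region with most fragments. Cytobands came from circlize 0.4.16. Computations used scipy 1.17.1, pandas 2.3.3 and numpy 2.4.6 under Python 3.11.15, and plots matplotlib 3.10.9. The sites, lists and alternatives were chosen with earlier results of these data known. Named sites were the 15 with the highest RUNX1 −log10 q, the 10 absent ones with the highest DMSO H3K27ac −log10 q, the 5 farthest from AI-10-49 acetylation and the 5 farthest from a DMSO RUNX1 site. To these came those nearest the rule's edge, any DMSO region with 3 or more sites (there were 0), the bands with most sites and the listed gene bands. The examples with acetylation on both sides were chosen after their values were seen.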

Additional observations from a re-analysis of the deposited data

How the results depend on the processing

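Of 34 alternative values, 17 stayed within the counting interval of the main value (for counts and ratios, within 1.5 times it) and 17 moved. The main values are 440 sites, 5.01% of new sites, 50.0% in absent regions and 3.06 sites per new site acetylated in AI-10-49 only. Where the summit, and not the peak, had to lie in a DMSO region and outside AI-10-49 regions, there were 965 sites (10.99%), 9.95% of them in absent regions, and 13.5% of DMSO RUNX1 sites were in that state against 9.64%. With 50% of the peak covered there were 231 (2.63%), with a ratio of 5.02. With no region of the other H3K27ac list within 1 kb there were 198 (2.25%), 100% of them in absent regions, as that margin requires. When regions under a −log10 q of 5 were left out of both H3K27ac lists, the share was 5.72% and 60.6% were absent. With this limit on the touched region only the share was 4.47%. A limit of 10 there left 292 sites (3.32%), 35.6% absent and a ratio of 6.21. Except where construction shows it, the cause was not tested. No paired analysis was possible because there was 1 library per antibody and condition. The depth of each list bounds which weak regions could be listed.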
